A study of Equus caballus with 37 samples.

Results

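The 3 transcripts described here, all connected with immune defence, were followed through the training cycle of Arabian horses: GZMH (Ensembl gene ENSECAG00000008322), ENSECAG00000000325 and ENSECAG00000012920. They are 3 of the 26991 genes in the count table and were taken by identifier. GZMH encodes granzyme H, and ENSECAG00000000325 is annotated as a member of the MHC class I family. ENSECAG00000012920 is known here only by the broad classes that the study gives it, defence or immunity protein and cytokine receptor. The study puts ENSECAG00000000325 in the same classes. All 3 passed the filter on low counts in each of the 6 comparisons of periods. Each was listed by the study among genes that changed between training periods in these same libraries, ENSECAG00000000325 and ENSECAG00000012920 in the step from canter to gallop, so their differences are not independent evidence of a direction.

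Granzymes are serine proteases stored in the granules of cytotoxic T cells and natural killer cells. After release into a target cell through pores made by perforin they trigger its death. MHC class I molecules sit on nearly all nucleated cells, present peptides from inside the cell to cytotoxic T cells and inhibit natural killer cells, and their genes respond to interferon. The class I genes form a family of very similar and highly polymorphic members, so reads can be hard to assign to 1 of them. Cytokine receptors bind the secreted signals by which immune cells instruct each other. Since the study's class of that name also holds ENSECAG00000000325, it does not show that ENSECAG00000012920 is such a receptor.

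RNA was sequenced from whole jugular blood of Arabian horses kept in 1 stud, in 37 libraries. T0 holds 6 untrained horses labelled as 2.5 years old, except 1 labelled as 3 years old (2 mares and 4 stallions). The other groups were 3 years old and in race training: T1 after the slow canter phase (12 libraries, 5 mares and 7 stallions), T2 after the intense gallop phase (11 libraries, 4 mares and 7 stallions) and T3 at the end of the racing season (8 libraries, 4 mares and 4 stallions). The trained horses were sampled at up to 3 of these periods, but the labels name no horse, so libraries were treated as separate samples, and period cannot be told apart from season and, for T0, from age. In whole blood, fewer cells of a type and less RNA per cell cannot be told apart, and the markers of blood cell types could not be checked, because 0 of the 91 symbols in the lists of cell markers and pathways could be paired with the identifiers in the table.

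Library totals ran from 3810631 to 14932603 counts, with a median of 10611594. Of the 12 T1 libraries, 5 (replicates 1, 2, 3, 4 and 11) stood apart by a TMM scaling factor under 0.9, down to 0.411, whereas the factors of T0, T2 and T3 lay between 0.949 and 1.25. The 5 libraries, 4 of them from mares, had 11559 to 14108 genes detected, against 13845 to 15795 in the other 32 libraries, and their 10 highest genes took 8.97% to 12.1% of the counts, against 6.40% to 9.16%. Differences between T1 and another period are therefore given with and without these 5 libraries. Levels are TMM-scaled counts per 1000000 counts of the library (CPM), which are not corrected for gene length and are compared only within a gene. At the median total, 1 CPM corresponds to 10.6 counts. The lowest count of a member in any library was 159 for GZMH, 3546 for ENSECAG00000000325 and 216 for ENSECAG00000012920, so each was counted in every library.

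By mean TMM-scaled CPM, all 3 transcripts were lowest in untrained horses and highest after the slow canter phase. Their period means fell in the order T1, T2, T3, T0. A difference was called when the edgeR quasi-likelihood test gave a Benjamini-Hochberg adjusted p-value under 0.05 over all genes tested and the fold change was at least 1.3. From T0 to T1, 3 of 3 rose, beside 58.1% of all genes called in either direction. From T1 to T3, 3 of 3 fell, beside 65.0% of all genes. GZMH and ENSECAG00000000325 were also higher in T2 than in T0 (2 of 3, background 33.4%). From T1 to T2 only ENSECAG00000012920 was called (1 of 3, background 32.0%), and from T2 to T3 only GZMH (1 of 3, background 44.0%), both downwards. Between T0 and T3, 0 of 3 passed the edgeR test (background 19.6%), and none of the 3 had an unadjusted p-value under 0.05. DESeq2 called none of them there either. With 3 genes, and with a large part of all genes called in most comparisons, these counts are no result particular to the members. The 6 comparisons share libraries and are not independent of each other.

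**Figure D1:**
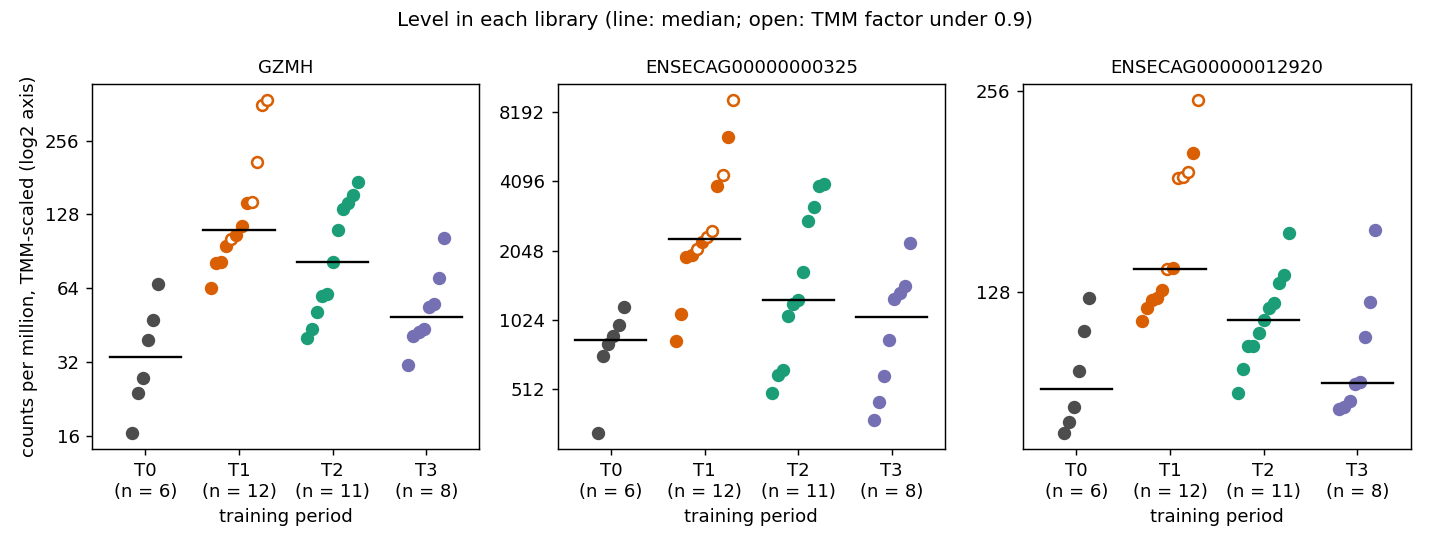
TMM-scaled CPM of GZMH, ENSECAG00000000325 and ENSECAG00000012920 in each library (points) by training period, on log2 axes that differ between panels; lines are medians and open points are the 5 T1 libraries with a TMM factor under 0.9. Each gene is highest in T1, open points hold the highest values (GZMH up to 375 CPM), and the groups overlap in every pair of periods.

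GZMH rose about as steeply as ENSECAG00000000325 after the slow canter phase. Its level in T0 ran from 16.5 to 66.9 CPM with a median of 33.5 CPM (mean 36.9 ± 18.4, SD, n = 6). In T1 it ran from 64.1 to 375 CPM with a median of 111 CPM (mean 156 ± 105, SD, n = 12). In T2 the range was 40.1 to 174 CPM with a median of 81.9 CPM (mean 95.6 ± 48.9, SD, n = 11). All 12 T1 libraries lay above the T0 median, and 11 of them above the highest T0 library. In T3 GZMH ran from 31.2 to 102 CPM with a median of 48.7 CPM (mean 55.0 ± 22.5, SD, n = 8), and all 8 T3 libraries lay below the T1 median, 6 of them below the lowest T1 library. The T0 and T3 ranges overlapped widely, with 2 of 8 T3 libraries above the highest T0 library.

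The log2 fold change of GZMH was 2.06 from T0 to T1 (SE 0.42, edgeR adjusted p = 0.000671), which is 4.16-fold. From T0 to T2 it was 1.39 (SE 0.36, adjusted p = 0.00696), with all 11 T2 libraries above the T0 median. GZMH then fell by 0.81 on the log2 scale from T2 to T3 (SE 0.29, edgeR adjusted p = 0.0251), and 7 of 8 T3 libraries lay below the T2 median. This call was lost without T3 replicate 7, the lowest T3 library, where the log2 fold change was -0.72 (edgeR adjusted p = 0.0531). The step from T1 to T2 was -0.69 (95% interval -1.34 to -0.03, edgeR adjusted p = 0.0888) and did not pass. From T1 to T3 GZMH fell by 1.49 on the log2 scale (SE 0.34, edgeR adjusted p = 0.00059). Between T0 and T3 the difference was 0.57 (95% interval -0.08 to 1.21, edgeR adjusted p = 0.186), and it passed the test when sex was a term in the model (0.73, edgeR adjusted p = 0.0455).

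The highest GZMH levels of the series came from T1 libraries with a low TMM factor. Those 5 libraries held 145 CPM in replicate 1, 359 CPM in replicate 2, 210 CPM in replicate 3, 375 CPM in replicate 4 and 102 CPM in replicate 11. The other 7 T1 libraries ran from 64.1 to 142 CPM (mean 98.0 ± 25.9, SD), a level close to the T2 mean of 95.6 CPM. Without the 5 libraries the T0 to T1 log2 fold change was 1.44 (SE 0.27, edgeR adjusted p = 0.000466) and the T1 to T3 change -0.84 (SE 0.22, edgeR adjusted p = 0.00309), so both calls were kept at smaller sizes. The T1 to T2 difference shrank to -0.03 (SE 0.28, edgeR adjusted p = 0.969). Whether the scaling of those libraries takes part in the T1 level was not tested.

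**Figure D2:**
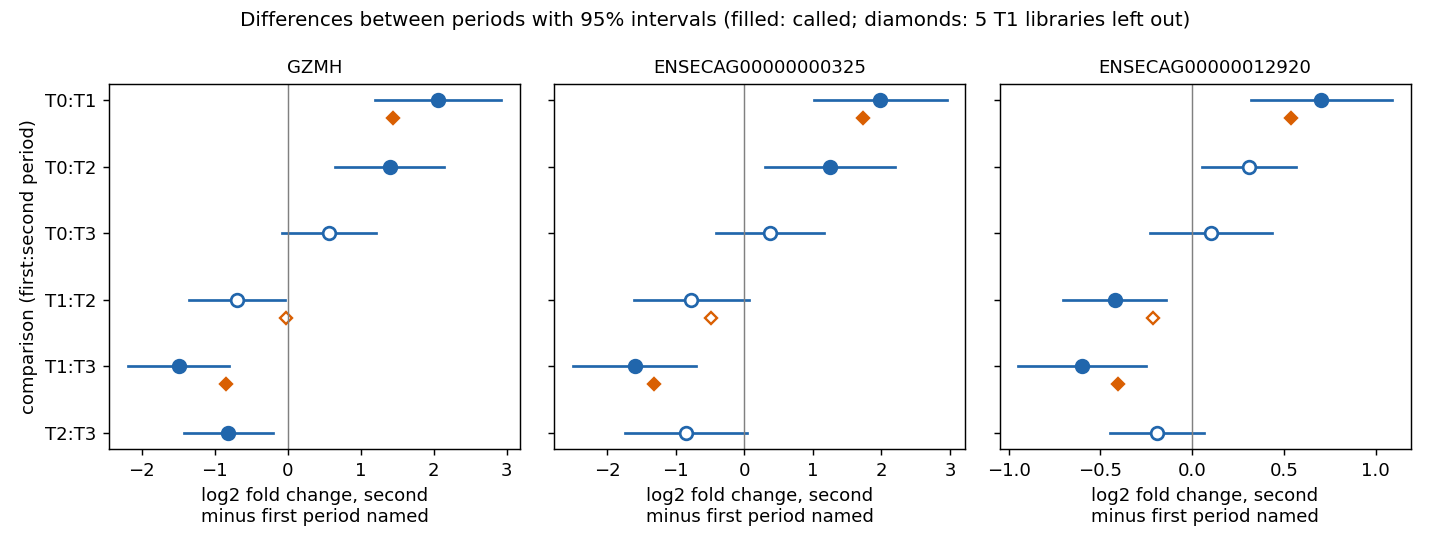
Log2 fold changes (circles) with 95% intervals (bars) for the 3 genes in the 6 comparisons of periods, second minus first period named, on horizontal axes that differ between panels; filled symbols passed the edgeR call and diamonds are the values with 5 T1 libraries left out. The T0:T1 and T1:T3 changes stay called without those libraries, whereas the T1:T2 value of GZMH moves to -0.03.

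A second row of the table, ENSECAG00000008721, is also described as a granzyme H family member, and reads from such close relatives may be divided between the rows by the counting program, so each single row is uncertain. Its mean level was 25.0 CPM in T0, 108 CPM in T1, 67.9 CPM in T2 and 44.7 CPM in T3, in the same order as GZMH. It rose by 2.09 on the log2 scale from T0 to T1 (SE 0.53, edgeR adjusted p = 0.00291) and by 1.46 from T0 to T2 (SE 0.49, edgeR adjusted p = 0.0271), and fell by 1.26 from T1 to T3 (SE 0.50, edgeR adjusted p = 0.0309). Without the 5 T1 libraries the first was 1.49 (edgeR adjusted p = 0.00177), and the T1 to T3 change was -0.63 and no longer passed (edgeR adjusted p = 0.206). The T0 to T2 call of ENSECAG00000008721 was lost without T0 replicate 1 (1.36), 4 (1.31), 5 (1.42) or 6 (1.45), and its T1 to T3 call without T1 replicate 2 (-1.096) or 4 (-1.003) or T3 replicate 4 (-1.17), 5 (-1.23) or 6 (-1.19). With the TMM factor as a covariate none of its 3 calls remained, and its T0 to T1 value was 1.45 (edgeR adjusted p = 0.0699). Its steps from T1 to T2 (-0.65, and -0.01 without the 5 libraries) and from T2 to T3 (-0.61) did not pass.

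The GZMH level divided by that of ENSECAG00000008721 had a median of 1.58 over the 37 libraries. It was 7.95 in T1 replicate 11 and 7.90 in T3 replicate 7, both mares, while the other 35 libraries ran from 0.692 to 3.81. T3 replicate 7 had the lowest level of ENSECAG00000008721 in the series, 3.94 CPM, beside 31.2 CPM of GZMH. With both rows summed before the fit, an alternative chosen after seeing the data, the T0 to T1 log2 fold change was 2.07 (edgeR adjusted p = 0.000777) and the T1 to T3 change -1.39 (edgeR adjusted p = 0.0022). Leaving out the 5 T1 libraries gave 1.46 (edgeR adjusted p = 0.000283) and -0.75 (edgeR adjusted p = 0.0176). The T2 to T3 change of the sum was -0.73 and did not pass (edgeR adjusted p = 0.0786).

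**Figure D3:**
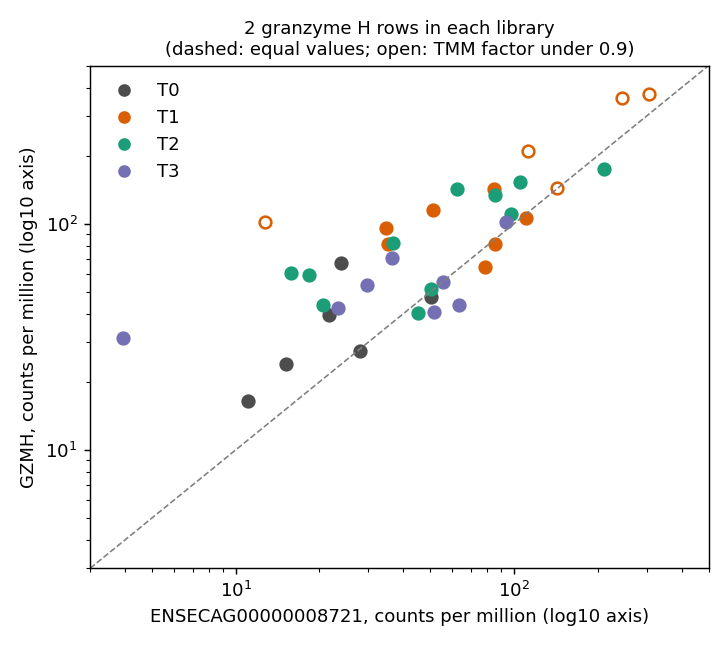
GZMH against ENSECAG00000008721 in each of the 37 libraries, both in TMM-scaled CPM on log10 axes, coloured by period; the dashed line marks equal values and open points are T1 libraries with a TMM factor under 0.9. The points rise together, and 2 libraries, T1 replicate 11 and T3 replicate 7, lie far above the line at ratios of 7.95 and 7.90.

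ENSECAG00000000325 was the most abundant of the 3 in counts and the most variable. It ran from 330 to 1161 CPM in T0 with a median of 833 CPM (mean 807 ± 281, SD, n = 6). In T1 it ran from 823 to 9250 CPM with a median of 2296 CPM (mean 3239 ± 2438, SD, n = 12). Of the 12 T1 libraries, 10 lay above the highest T0 library. In T2 the range was 489 to 3976 CPM with a median of 1248 CPM (mean 1880 ± 1331, SD, n = 11), and in T3 376 to 2202 CPM with a median of 1049 CPM (mean 1060 ± 620, SD, n = 8). The T2 range covered all T0 libraries but the lowest, and 3 of 11 T2 libraries lay below the T0 median. Across all 37 libraries the highest level was 28.0 times the lowest, and at its peak, in T1 replicate 4, the transcript took 0.644% of all counts.

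It rose by 1.98 on the log2 scale from T0 to T1 (SE 0.46, edgeR adjusted p = 0.00176), which is 3.96-fold, and fell by 1.60 from T1 to T3 (SE 0.43, edgeR adjusted p = 0.00277), with all 8 T3 libraries below the T1 median. Both calls stood without the 5 T1 libraries, at 1.73 (edgeR adjusted p = 0.00305) and -1.32 (edgeR adjusted p = 0.0132). The 7 T1 libraries that remained averaged 2621 ± 1943 CPM (SD). The steps from T1 to T2 (-0.77, 95% interval -1.61 to 0.07, edgeR adjusted p = 0.13, and -0.48 without the 5 libraries) and from T2 to T3 (-0.84, 95% interval -1.73 to 0.05, edgeR adjusted p = 0.102) did not pass. The second of these was called without T3 replicate 6, at -1.08 (edgeR adjusted p = 0.0494). T0 and T3 differed by 0.38 (95% interval -0.41 to 1.16, edgeR adjusted p = 0.487).

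The T0 to T2 call of ENSECAG00000000325 lay close to the threshold. Its log2 fold change was 1.25 (SE 0.45, edgeR adjusted p = 0.0357). Leaving out 1 library at a time kept it between 1.08 and 1.39, but 9 of 17 such fits lost the call, with an edgeR adjusted p of up to 0.082. They were the fits without T0 replicate 2 (1.302), 3 (1.21), 4 (1.08), 5 (1.25) or 6 (1.27), and without T2 replicate 3 (1.15), 5 (1.08), 6 (1.08) or 7 (1.19).

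A further 4 rows are described as MHC class I family members, and together with ENSECAG00000000325 they averaged 1850 ± 604 CPM in T0, 7495 ± 5308 CPM in T1, 4287 ± 2735 CPM in T2 and 2452 ± 1346 CPM in T3 (SD). Summed before the fit, again an alternative chosen after seeing the data, these 5 rows rose by 1.996 on the log2 scale from T0 to T1 (edgeR adjusted p = 0.00196) and fell by 1.60 from T1 to T3 (edgeR adjusted p = 0.00336), close to the values of ENSECAG00000000325 alone. With those 5 T1 libraries left out the sum averaged 5156 ± 3624 CPM in T1 and changed by 1.51 (edgeR adjusted p = 0.00519) and -1.08 (edgeR adjusted p = 0.034).

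Of the other rows, ENSECAG00000015782 rose by 1.86 from T0 to T1 (edgeR adjusted p = 0.00176) and fell by 1.68 from T1 to T3 (edgeR adjusted p = 0.00147). These values of ENSECAG00000015782 were, with the 5 T1 libraries left out, 1.12 (edgeR adjusted p = 0.00442) and -0.91 (edgeR adjusted p = 0.0339). With the TMM factor as a covariate they were 0.88 and -0.75, and neither passed (edgeR adjusted p = 0.0753 and 0.107). ENSECAG00000015782 was also called from T1 to T2 (-1.04, edgeR adjusted p = 0.0254). Without the 5 T1 libraries that change was -0.26 and did not pass (edgeR adjusted p = 0.701). The call was also lost without T1 replicate 1 (-0.88), T1 replicate 2 (-0.86) or T2 replicate 10 (-0.91). From T0 to T2 this row was called at 0.85 (edgeR adjusted p = 0.0494). DESeq2 (0.84, adjusted p = 0.0272) and edgeR with sex as a term (0.86) or with equal title numbers as pairs (1.115) kept that call. It was lost with other size factors (0.84), one fit of all libraries (0.83) or the TMM covariate (0.03). No filter on low counts (0.84), genes over 1% of counts left out (0.84), the first surrogate variable (0.66) and libraries thinned to the smallest total (0.83) lost it too. So did leaving out any 1 of T0 replicates 2 to 6 or T2 replicates 1, 2, 3, 5, 6, 7 or 9. ENSECAG00000021750 fell by 1.13 from T1 to T3 (edgeR adjusted p = 0.0096), or by 0.72 without the 5 libraries (edgeR adjusted p = 0.0446), and was not called with the TMM covariate (-0.93, edgeR adjusted p = 0.0935). Its T0 to T1 value was 0.88 and did not pass (edgeR adjusted p = 0.0556), whereas DESeq2 called it at 0.88 (adjusted p = 0.0333), as did edgeR with other size factors (0.89) or one fit of all libraries (0.91). That value was 0.50 without the 5 libraries (edgeR adjusted p = 0.138). ENSECAG00000016428 had edgeR log2 values between -0.43 from T1 to T3 and 0.69 from T0 to T1 and was not called between periods taken as unpaired groups, except without T1 replicate 11 from T0 to T1 (0.78, edgeR adjusted p = 0.0416) and without T0 replicate 1 from T0 to T2 (0.73, edgeR adjusted p = 0.0488).

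The remaining row, ENSECAG00000009368, was either high or low in a library, with nothing between. It exceeded 1000 CPM in 10 libraries (1023 to 5794 CPM) and lay between 8.13 and 95.5 CPM in the other 27. The high libraries were T1 replicates 1, 4, 5 and 6, T2 replicates 1, 3, 5 and 6, and T3 replicates 1 and 6, and 0 of 6 T0 libraries. Its log2 fold changes from T0, 5.51 to T1 (edgeR adjusted p = 0.00873) and 4.77 to T2 (edgeR adjusted p = 0.0184), therefore rest on 4 high libraries in each of these groups. Without the 5 T1 libraries, which hold 2 of the 4 high ones in T1, the first was 4.64 (edgeR adjusted p = 0.0119). The T0 to T2 call was lost in one fit of all libraries (4.74, edgeR adjusted p = 0.0572), and both were lost with the TMM covariate (4.70 and 3.14). The period medians were 17.7 CPM in T0, 38.9 CPM in T1, 30.3 CPM in T2 and 23.3 CPM in T3.

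ENSECAG00000000325 took a steady part of the 5 class I rows in most libraries, with period means between 43.2% (T0) and 45.3% (T1). In all, 3 libraries fell apart from the others, with shares of 18.2% in T1 replicate 1, 22.4% in T2 replicate 1 and 21.7% in T3 replicate 1. The other 34 libraries ran from 34.2% to 54.1%. The 3 low libraries carry the same number in their titles and are all mares, but the labels do not say whether they come from 1 horse, and all 3 are among the libraries high in ENSECAG00000009368.

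**Figure D4:**
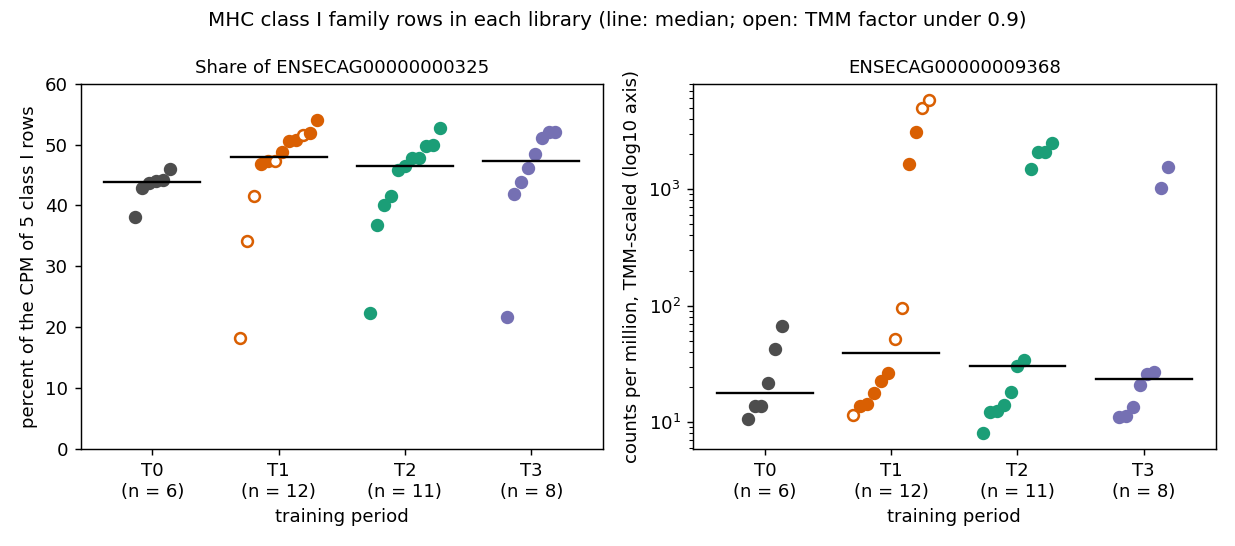
Left, the share of ENSECAG00000000325 in the summed CPM of 5 MHC class I family rows (percent); right, the level of ENSECAG00000009368 (TMM-scaled CPM, log10 axis), in each library by period; lines are medians and open points are T1 libraries with a TMM factor under 0.9. Single libraries in T1, T2 and T3 drop to shares of 18.2%, 22.4% and 21.7%, and ENSECAG00000009368 splits into 10 libraries above 1000 CPM and 27 at or below 95.5 CPM.

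ENSECAG00000012920 varied least and changed least. It ran from 78.7 to 125 CPM in T0 with a median of 91.5 CPM (mean 96.7 ± 18.4, SD, n = 6) and from 116 to 248 CPM in T1 with a median of 138 CPM (mean 160 ± 43.3, SD, n = 12). All 12 T1 libraries lay above the T0 median and 9 above the highest T0 library. Before scaling, the 5 T1 libraries of low TMM factor did not stand above T0. There the transcript took 0.00567% to 0.01405% of a library's counts, against 0.00948% to 0.0147% in T0. The other 7 T1 libraries held 0.01215% to 0.01905%. Whether the scaling takes part in the T1 level of ENSECAG00000012920 was not tested. In T2 the range was 90.3 to 157 CPM with a median of 116 CPM (mean 118 ± 18.9, SD, n = 11), and in T3 85.4 to 158 CPM with a median of 93.5 CPM (mean 105 ± 25.4, SD, n = 8). In T2, 10 of 11 libraries, and in T3, 7 of 8, lay below the T1 median.

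It rose by 0.70 on the log2 scale from T0 to T1 (SE 0.18, edgeR adjusted p = 0.00366), which is 1.63-fold, and fell by 0.60 from T1 to T3 (SE 0.17, edgeR adjusted p = 0.00354). Without the 5 T1 libraries these values were 0.54 (edgeR adjusted p = 0.00772) and -0.40 (edgeR adjusted p = 0.0269). With the TMM factor as a covariate they were 0.41 and -0.30, and neither passed (edgeR adjusted p = 0.0957 and 0.131). The T1 to T2 change was -0.42 (SE 0.14, edgeR adjusted p = 0.024), and without the 5 T1 libraries it was -0.21 and did not pass (edgeR adjusted p = 0.438). It was also lost without T1 replicate 3 (-0.37), T1 replicate 8 (-0.35), T2 replicate 9 (-0.37) or T2 replicate 10 (-0.36). From T0 to T2 the difference was 0.31 (95% interval 0.05 to 0.56, edgeR adjusted p = 0.0527), and it passed without T0 replicate 2 (0.39, edgeR adjusted p = 0.0232). T2 and T3 differed by -0.19 (95% interval -0.45 to 0.07, edgeR adjusted p = 0.202), and T0 and T3 by 0.10 (95% interval -0.23 to 0.44, edgeR adjusted p = 0.667).

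Read along the order of levels, neighbouring periods were mostly not separated. T1 and T2 differed for ENSECAG00000012920 only, T2 and T3 for GZMH only, and T3 and T0 for none of the 3, with the exceptions given above for single libraries and for sex as a term. With the TMM factor as a covariate, the calls that remained among the members were those of GZMH and ENSECAG00000000325 from T0 to T1 (1.396 and 1.84, edgeR adjusted p = 0.0197 and 0.0137) and from T1 to T3 (-0.88 and -1.46, edgeR adjusted p = 0.0465 and 0.022). Since the factor differs between periods, calls lost with that covariate cannot be credited to the factor or to period. A single fit of all 37 libraries lost the T2 to T3 call of GZMH (-0.80) and the T0 to T2 call of ENSECAG00000000325 (1.22). A p-value that misses the threshold does not show equal levels, and the intervals for GZMH and ENSECAG00000000325 between T0 and T3 reach 1.21 and 1.16 on the log2 scale.

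The 3 genes differed in how much horses of 1 period varied. The SD of log2 CPM within periods was 0.97 for ENSECAG00000000325, higher than that of 94.9% of the 12025 genes compared. It was 0.74 for GZMH, higher than that of 80.8% of genes. For ENSECAG00000012920 it was 0.31, higher than that of 17.5% of genes, beside a median of 0.50 over all genes. These ranks are pooled over periods. Taken singly, T0 and T3 put the SD of ENSECAG00000012920 above that of 55.8% and 58.6% of genes, whereas T1 and T2 gave 16.3% and 16.4%. The rank of GZMH ran from 65.1% (T1) to 94.6% (T0), and that of ENSECAG00000000325 from 78.4% (T1) to 98.1% (T2). The part of the variance in log2 CPM that lay between periods was 51.2% for GZMH, 47.0% for ENSECAG00000012920 and 36.2% for ENSECAG00000000325, beside a median of 39.5% over all genes. The small fold changes of ENSECAG00000012920 thus stood against a small pooled spread, and the large ones of ENSECAG00000000325 against a wide one. Among the T0 or the T3 libraries alone, the spread of ENSECAG00000012920 was not small beside that of other genes.

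Mares and stallions were uneven in number between periods. GZMH averaged 21.98 ± 7.76 CPM in the 2 mares and 44.4 ± 17.8 CPM in the 4 stallions of T0, 189 ± 112 and 133 ± 103 CPM in T1, 117 ± 54.8 and 83.1 ± 44.5 CPM in T2, and 42.7 ± 9.22 and 67.2 ± 26.3 CPM in T3 (SD). The sexes thus stood in the opposite order in T1 and T2 from that in T0 and T3, within overlapping spreads. Without the 5 libraries of low TMM factor 1 mare (115 CPM) and 6 stallions (mean 95.1 CPM) remained in T1. No interaction of sex with period passed the edgeR test for GZMH, which had its smallest unadjusted p-value, 0.0409, from T0 to T2 (edgeR adjusted p = 1).

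The genes whose log2 CPM followed each member most closely were taken as the 3 highest Pearson correlations over the 37 libraries among 12024 genes. These are descriptions across libraries that share horses, periods and scaling factors. For GZMH they were ENSECAG00000015147 (r = 0.90), ENSECAG00000001910 (r = 0.89) and ENSECAG00000016215 (r = 0.87). For ENSECAG00000000325 they were ENSECAG00000021750 (r = 0.88) and ENSECAG00000015782 (r = 0.78), both of the class I family, with ENSECAG00000019367 (r = 0.80) between them. For ENSECAG00000012920 they were ENSECAG00000008781 (r = 0.89), ENSECAG00000013445 (r = 0.89) and ENSECAG00000008867 (r = 0.89). Among the 3 members themselves, r was 0.75 for GZMH and ENSECAG00000012920, 0.68 for GZMH and ENSECAG00000000325, and 0.53 for ENSECAG00000000325 and ENSECAG00000012920. After subtraction of the period means these were 0.55, 0.46 and 0.21. The log2 TMM factor of a library correlated with the members' log2 CPM at -0.62 for GZMH, -0.48 for ENSECAG00000000325 and -0.73 for ENSECAG00000012920. These values pool the periods, whose factors differ. Among the 12 T1 libraries alone they were -0.48, -0.18 and -0.58 in the same order. The CPM is itself divided by this factor. The part of the factor in the results was not tested beyond the fits named here.

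The 12 other immune genes that could be identified in the table moved in both directions. They comprise the granzyme and 4 class I rows above, a class II DQ beta gene (antigen presentation to helper T cells), APOBEC3Z2E and an IFITM3 family gene (both antiviral), the interleukin receptor chain IL10RB, and family members of LY75 (an uptake receptor of antigen-presenting cells), IFI203 (interferon-inducible) and TRIM25 (an interferon-induced ubiquitin ligase). All 12 were taken by identifier from the study's lists of genes that changed in these same libraries. Their counts and medians are therefore those of a selected list and not independent evidence of a direction. From T0 to T1, 7 were higher, 3 lower and 2 not called, beside 58.1% of all genes called, with a median log2 fold change of 0.85 beside -0.05 over all genes. From T1 to T3, 3 were higher and 6 lower, beside 65.0% of all genes called, with a median of -0.80 beside 0.04 over all genes. The counts were 4 higher and 3 lower from T0 to T2 (background 33.4%), 0 and 2 from T0 to T3 (19.6%), 1 and 3 from T1 to T2 (32.0%), and 3 and 2 from T2 to T3 (44.0%). Without the 5 T1 libraries, also a setting added after seeing the data, 6 were higher and 3 lower from T0 to T1 beside 49.5% of all genes called, and 3 were higher and 4 lower from T1 to T3 beside 55%. From T1 to T2 edgeR then called 0 of the 12, and 0 had an unadjusted p-value under 0.05.

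Among the 12, APOBEC3Z2E, the IFITM3 family gene and IL10RB were highest in T1, as the members were. APOBEC3Z2E (ENSECAG00000007726) rose by 1.01 on the log2 scale from T0 to T1 (edgeR adjusted p = 0.0017) and fell by 1.64 from T1 to T3 (edgeR adjusted p = 3.03e-06). The IFITM3 family gene (ENSECAG00000000968) rose by 1.35 (edgeR adjusted p = 0.0106) and fell by 1.37 (edgeR adjusted p = 0.00144), and IL10RB (ENSECAG00000007359) rose by 0.53 (edgeR adjusted p = 0.00657) and fell by 0.47 (edgeR adjusted p = 0.00791). The opposite course was seen for the LY75 family gene (ENSECAG00000022703), which fell by 1.98 from T0 to T1 (edgeR adjusted p = 0.000182) and rose by 2.16 from T1 to T3 (edgeR adjusted p = 1.12e-05). The TRIM25 family gene (ENSECAG00000023195) likewise fell by 1.25 (edgeR adjusted p = 0.000167) and rose by 1.61 (edgeR adjusted p = 1.65e-06), as did the IFI203 family gene (ENSECAG00000014696), at -1.73 (edgeR adjusted p = 5.69e-05) and 1.23 (edgeR adjusted p = 0.000292). Without the 5 T1 libraries the rise of the IFITM3 family gene, ENSECAG00000000968, was 0.69 and did not pass (edgeR adjusted p = 0.0646), and its T1 to T3 change was -0.68 (edgeR adjusted p = 0.0144). IL10RB, ENSECAG00000007359, was then 0.43 (edgeR adjusted p = 0.00884) and -0.33, of which the second did not pass (edgeR adjusted p = 0.0505). The other 4 kept both calls, at 0.69 and -1.29 for APOBEC3Z2E, -1.44 and 1.65 for the LY75 family gene, -1.03 and 1.42 for the TRIM25 family gene, and -1.385 and 0.91 for the IFI203 family gene. The class II DQ beta gene (ENSECAG00000017143) took neither course. It was higher than in T0 both in T1 (0.81, edgeR adjusted p = 0.0291) and in T2 (1.09, edgeR adjusted p = 0.0157). Its changes from T1 to T2 (0.25) and from T1 to T3 (-0.46) did not pass.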

How the data were processed

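Blood RNA of 37 libraries was sequenced as 75-bp single-end reads. The authors trimmed reads with Flexbar, aligned them to EquCab2 (Ensembl annotation) with STAR and estimated counts per gene with RSEM, and they deposited these expected counts rounded to whole numbers. RSEM divides reads between similar genes, so rows of gene families are uncertain, and strand was not kept. Columns of the authors' own comparisons were not used.

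The analysis used edgeR 4.0.16 in R 4.3.3. After filterByExpr and TMM scaling, each pair of periods was tested by quasi-likelihood over all genes with Benjamini-Hochberg adjustment. Positive log2 fold changes are higher in the second period named. The SE is derived from the F statistic, and intervals are 95%. DESeq2 1.42.0 and sva 3.50.0 gave alternatives. Replicates are numbered as in the titles, and groups come from the labels. Trained horses recur among T1, T2 and T3, and some T0 horses may recur as well. The tests take libraries as independent, which does not hold among T1, T2 and T3. Their p-values therefore measure the spread between libraries and not changes within a horse. The members and gene lists were chosen with earlier results of these data known. Named were the 3 members, 12 immune genes given by identifier, and the 3 genes most correlated with each member. None of 91 symbols in 9 lists of blood cell markers and pathways could be paired with an identifier. No sequences or coordinates were used here.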

Additional observations from a re-analysis of the deposited data

How the results depend on the processing

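Over the 3 members and 6 comparisons, 183 values under alternative settings kept their direction and their side of the call, 13 lost the call, 4 gained it and 1 changed sign. With the log2 TMM factor as a covariate, the lost values were 0.41 (ENSECAG00000012920, T0:T1), 0.72 (GZMH, T0:T2), 0.43 (ENSECAG00000000325, T0:T2), -0.18 and -0.30 (ENSECAG00000012920, T1:T2 and T1:T3) and -0.49 (GZMH, T2:T3), and ENSECAG00000012920 changed sign in T0:T3 to -0.0453, a difference not called in either fit. With all 37 libraries in one fit, 1.22 (ENSECAG00000000325, T0:T2) and -0.80 (GZMH, T2:T3) lost the call. With the first surrogate variable, 0.81 (ENSECAG00000000325, T0:T2) and -0.17 (ENSECAG00000012920, T1:T2) did. ENSECAG00000012920 in T1:T2 was also lost with no filter on low counts (-0.36) and without the 5 T1 libraries (-0.21), and GZMH in T2:T3 with the granzyme rows summed (-0.73). With sex as a term GZMH in T0:T3 was called at 0.73. The cause was not tested. Leaving out 1 library at a time, ENSECAG00000000325 ranged from 1.08 to 1.39 in T0:T2 and from -1.08 to -0.67 in T2:T3, ENSECAG00000012920 from 0.25 to 0.39 in T0:T2 and from -0.46 to -0.35 in T1:T2, and GZMH from -1.005 to -0.69 in T2:T3.

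The replicate block, which takes equal title numbers as pairs, called ENSECAG00000012920 in T0:T2 (0.43), GZMH in T1:T2 (-0.69) and ENSECAG00000000325 in T2:T3 (-1.09) and lost no call of a member. It also called ENSECAG00000016428 in T0:T1 (1.0), T0:T2 (0.87), T1:T3 (-0.69) and T2:T3 (-0.55), and ENSECAG00000021750 in T0:T1 (1.28) and T2:T3 (-0.87). Further calls gained in family rows were ENSECAG00000008721 in T0:T3 (0.98), ENSECAG00000009368 in T1:T3 (-2.36) and ENSECAG00000015782 in T2:T3 (-1.05). The numbers cannot be taken as pairs throughout, since of 45 same-numbered pairs only 22 had the same labelled sex. Correlations of their deviations ran from -0.346 to 0.524. Libraries of the first period correlated best with their own number in 4 of 8 cases in T1:T3, 3 of 6 in T0:T3 and 3 of 11 in T1:T2. The count was 1 of 6 in T0:T1, 1 of 6 in T0:T2 and 1 of 8 in T2:T3. Whether some equal numbers mark 1 horse is not given by the labels.

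Sign changes in family rows were -0.0833 and 0.18 (ENSECAG00000008721, T0:T2 and T2:T3, TMM covariate), 0.0035 (ENSECAG00000008721, T1:T2, surrogate variable), -0.499 (ENSECAG00000009368, T0:T3, DESeq2), -0.10 (ENSECAG00000015782, T0:T3, TMM covariate), and, without the 5 T1 libraries in T1:T2, 0.13 (ENSECAG00000009368) and 0.0465 (ENSECAG00000021750). The main edgeR value of ENSECAG00000009368 in T0:T3 was far from that of DESeq2, at 3.56, and was not called (edgeR adjusted p = 0.0556). It was called with the surrogate variable (3.65, edgeR adjusted p = 0.0494). Leaving out T0 replicate 1 or T3 replicate 2, 3, 4, 5 or 7 also gave a call. ENSECAG00000015782 in T0:T3 ranged from -0.0791 to 0.32 with 1 library left out.

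The TMM factor differs between periods, so fits with it as a covariate cannot cleanly part the factor from period. With the TMM covariate the counts of called genes were 2795 against 6708 in T0:T1, 0 against 3900 in T0:T2, 0 against 3584 in T1:T2, 4804 against 7452 in T1:T3, 2965 against 5107 in T2:T3 and 2419 against 2295 in T0:T3. With edgeR, 1180 genes in T0:T2 and 649 in T1:T2 then had an unadjusted p under 0.05, and DESeq2 with the same covariate called 410 and 3. In T1:T2 edgeR also called 0 genes without the 5 T1 libraries (1444 at an unadjusted p under 0.05, 16 called by DESeq2) and 0 with the surrogate variable (610 at an unadjusted p under 0.05; DESeq2 without it called 4328). One fit of all libraries called 2113 genes in T0:T2 and 717 against 2295 in T0:T3, and the replicate block 1447 in T0:T3.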
